A study of Homo sapiens with 6 samples.

Results

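The genes described here are KCNJ3, a potassium channel opened by the Gβγ dimer of heterotrimeric G proteins, and the genes that encode the Gβ and Gγ subunits themselves. They were named as KCNJ3, GNB1, GNB2, GNB4, GNB5, GNG5, GNG10 and GNG12, and each was taken from the deposited table by its gene symbol. KCNJ3 was selected on the counts of these same 6 libraries, chosen by its higher level in the GNA13 line, so its difference between the lines is given as a description, without a test. The subunit genes were named with it as the makers of its ligand, also with results of these libraries known. Of the 8 members, 7 had a row among the 17297 genes of the table, and GNG10 had none. A wider list held all 17 Gβ and Gγ subunit genes and the 4 channels of the same family, and 14 of these 21 genes had a row. All samples came from LNCaP, a long-used prostate cancer line of luminal type with an active androgen receptor. One stable line carried the empty retroviral vector (pBabe-vector, genotype given as WT) and the other carried the same vector with GNA13 (pBabe-GNA13, genotype given as GNA13 overexpression), and both had been selected with puromycin. RNA was taken from 3 cultures of each line, 48 h after the cells had been plated, and sequenced as total RNA libraries. Each condition is 1 stable line, so p-values measure the spread between cultures of a line and not between independently made lines.

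A heterotrimeric G protein consists of a Gα subunit, which binds GTP, and a Gβγ dimer, which is held in place by Gα until a receptor activates it. GNA13 encodes Gα13, a Gα subunit. The Gβ subunit folds as a propeller with the help of the chaperonin CCT, and the Gγ subunit carries a lipid at its carboxyl end that anchors the dimer to the membrane. KCNJ3, also called GIRK1 or Kir3.1, is an inwardly rectifying potassium channel subunit best known from heart atrium and neurons, where Gβγ released from Gi-coupled receptors opens it. It usually needs a partner channel of the same family, KCNJ5 in atrium or KCNJ6 in neurons, to reach the cell surface.

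GNA13 first served as a check of the labels. Its level was 818 ± 69.6 CPM (SD, n = 3; the gene's count relative to the library total, scaled by TMM) in pBabe-GNA13 and 70.5 ± 5.72 CPM (SD, n = 3) in pBabe-vector, and each pBabe-GNA13 library lay above each pBabe-vector library. The libraries held 33002160 to 40628970 counts. A level of 3 counts, the lowest read here as more than background, was worth 0.0738 to 0.0909 CPM before TMM scaling (the floor). All 8 luminal prostate markers had a row. KLK3, which encodes prostate-specific antigen, was at 2780, 4204 and 2445 CPM in pBabe-GNA13 (std, replicates 2 and 3). In pBabe-vector (replicates 1, 2 and 3) it was at 2674, 3784 and 1836 CPM. By edgeR none of the 8 was called without the pairs of libraries named below, where 0.139% of all genes were called. With these pairs as a block 4 of the 8 (50%) were called, all higher in pBabe-GNA13, against 9.32% of all genes called higher. None of 4 immune markers had a row. Of the 8 neuronal or neuroendocrine markers 4 had a row, and their summed level was 3.29 to 3.94 CPM in pBabe-GNA13 and 4.58 to 4.98 CPM in pBabe-vector, with SNAP25 at 0 or 1 count in each library. Of the 5 cardiac markers TNNT2 and ACTN2 had a row, with a summed level of 0.930 to 3.17 CPM in pBabe-GNA13 and 0.530 to 1.98 CPM in pBabe-vector. The basal marker KRT5 was at 3.08 and 3.72 CPM in the std library and replicate 3 of pBabe-GNA13, at 0.572 and 0.592 CPM in replicates 1 and 3 of pBabe-vector, and at 0 in replicate 2 of both lines. The fibroblast marker COL1A2 was also at 0 in replicate 2 of both lines, and stood at 2.57 and 2.53 CPM in the other pBabe-GNA13 libraries. In replicates 1 and 3 of pBabe-vector COL1A2 was at 0.0477 and 0.0935 CPM (2 and 3 counts). The summed level of the 3 basal markers was 4.50 to 8.26 CPM in pBabe-GNA13 and 2.38 to 2.48 CPM in pBabe-vector. That of the 4 fibroblast markers was 17.3 to 24.8 CPM and 11.6 to 23.5 CPM, most of it COL1A1. Of the 3 endothelial markers only VWF had a row. VWF was at 25.9, 30.5 and 14.6 CPM in pBabe-GNA13 (std, replicates 2 and 3). In pBabe-vector (replicates 1, 2 and 3) it was at 19.1, 20.6 and 6.54 CPM. The lines overlapped, but VWF was higher in pBabe-GNA13 within each pair. By edgeR it was called higher with the pairs as a block, where 19.7% of all genes were called. The libraries pair across the lines by the number or the tag std in their names, and values within these pairs are given below where they matter. In these pooled cultures, fewer cells that express a gene and less RNA per cell cannot be told apart.

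KCNJ3 was low in LNCaP with the empty vector and about 10 times higher in LNCaP with GNA13. The pBabe-vector libraries held 17, 19 and 18 KCNJ3 counts (replicates 1, 2 and 3), and the pBabe-GNA13 libraries held 156, 144 and 267 counts (std, replicates 2 and 3). On the CPM scale these were 0.405, 0.561 and 0.561 in pBabe-vector and 4.18, 4.23 and 7.76 in pBabe-GNA13. The pBabe-GNA13 libraries all lay above the pBabe-vector libraries, and replicate 3 of pBabe-GNA13 stood above its other libraries. The means were 5.39 ± 2.06 CPM and 0.509 ± 0.0898 CPM (SD, n = 3 each), a 10.6-fold difference, or 3.41 on the log2 scale. Within the pairs the log2 difference was 3.20 (std), 2.80 (replicate 2) and 3.66 (replicate 3), and leaving out 1 library at a time gave 3.05 to 3.57. The pair of replicate 2 had the smallest of these 3 differences. In that pair KRT5 and COL1A2 were at 0 in both lines, while the basal marker KRT14 was at 4.50 CPM in pBabe-GNA13 and 2.48 CPM in pBabe-vector, and COL1A1 at 17.2 and 23.1 CPM. The summed basal markers, and COL1A2 outside replicate 2, were higher in the same line as KCNJ3. Their part in the KCNJ3 difference was not tested.

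KCNJ3 lies on chromosome 2 of GRCh38 at chr2:154697855-154858354 on the plus strand (Gencode 44). A stretch before its RefSeq start is shown because it is the only promoter window at hand for the channel whose level differed between the lines. It covers chr2:154698445-154698580 (GRCh38.p14, plus strand), the first 136 bases of a 250-base window that ends at the RefSeq start. The rest is not shown because a Gencode 44 exon begins there. Gencode 44 places a start of the gene further upstream, so the window lies within the annotated gene. Capitals mark the letters AGAACA, the half-site recognized by the androgen receptor, at position -150 from the RefSeq start.
KCNJ3: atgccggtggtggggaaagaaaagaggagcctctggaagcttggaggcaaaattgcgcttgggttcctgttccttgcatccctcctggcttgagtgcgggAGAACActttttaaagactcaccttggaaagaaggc

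Searched on both strands, AGAACA occurred in 12.4% of 35116 RefSeq promoter windows of 250 bases, so 1 match is common. The full 250-base KCNJ3 window also held GGGCGG, the core of an Sp1 site, at position -8 on the minus strand, in the part not shown. So did 42.6% of all windows. The TATA box letters TATAAA, which 10.7% of all windows held, were absent. The same was true of the AP-1 letters TGANTCA, in 6.57% of all windows, of the E-box CACGTG, in 6.34%, and of the TEAD letters GGAATG. The CArG box of serum response factor, in 1.16% of all windows, was not found either. The GC content of the KCNJ3 window was 62.4%, against a median of 58% over all windows, with a CpG count of 0.493 times that predicted from its base composition. A match of letters describes the sequence and not the binding of a factor.

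No partner channel of KCNJ3 had a row: KCNJ5, KCNJ6 and KCNJ9 were all without one. Of the 11 other inward rectifiers on the list, 4 had a row and 3 reached a mean of 1 CPM. KCNJ11, the pore of the ATP-sensitive potassium channel, was at 10.2 ± 1.39 CPM in pBabe-GNA13 and 9.57 ± 1.07 CPM in pBabe-vector (SD, n = 3 each), a log2 difference of 0.09 (SE 0.16). KCNJ14 was at 2.66 ± 0.337 CPM in pBabe-GNA13 and 2.24 ± 0.634 CPM in pBabe-vector (SD, n = 3 each), and its libraries overlapped between the lines. None of the other inward rectifiers passed edgeR's test at an adjusted p of 0.05, without or with the pairs as a block, and 0 of the 4 had an unadjusted p under 0.05. Over all genes these shares were 0.139%, 19.7% and 8.46%, so a count of 0 among 4 genes lies near the background.

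The nearest genes of the table on either side of KCNJ3 did not show its difference. GALNT13, which encodes a glycosyltransferase and ends 243.9 kb before KCNJ3, had at most 0.0581 CPM in a library, below the floor. NR4A2, an orphan nuclear receptor gene 1466.1 kb after KCNJ3, was at 0.750, 0.734 and 0.901 CPM in pBabe-GNA13 and at 0.763, 1.09 and 1.03 CPM in pBabe-vector, which overlap. The median log2 fold change of the genes of chromosome 2 was 0.07, and relative to it KCNJ3 differed by 3.33.

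**Figure D1:**
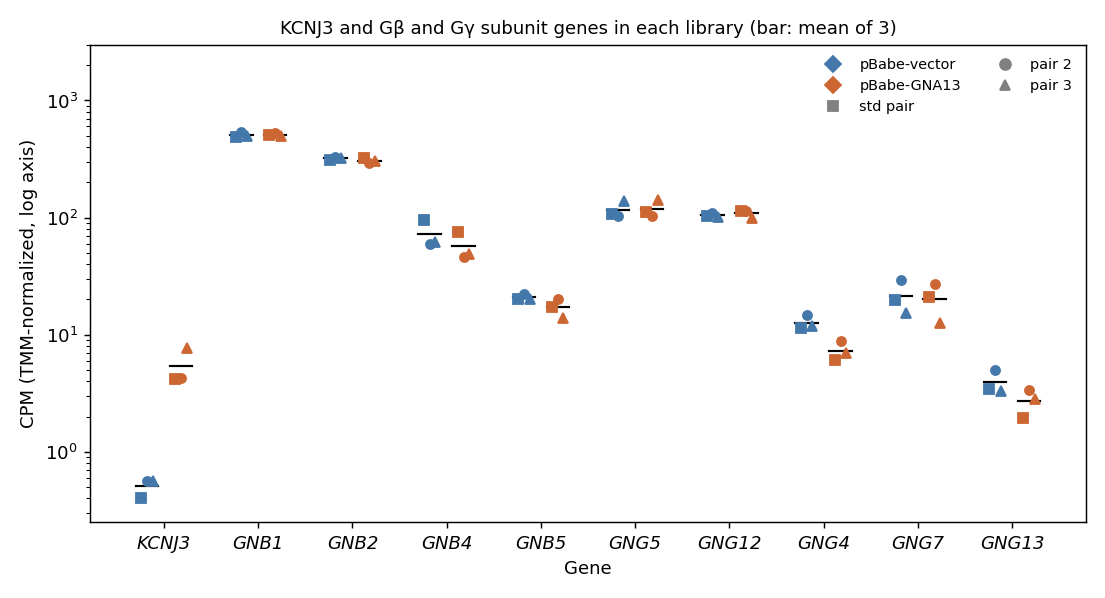
Level of KCNJ3 and of the Gβ and Gγ genes with a mean of at least 1 CPM in each of the 6 libraries, in TMM-normalized CPM on a log axis. Colour gives the line, the symbol gives the pair and the bar is the mean of 3 libraries. KCNJ3 stands between 4.18 and 7.76 CPM in pBabe-GNA13 and between 0.405 and 0.561 CPM in pBabe-vector, while GNB1, GNB2, GNG5 and GNG12 lie at the same height in both.

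The genes whose level followed KCNJ3 most closely over the 6 libraries were sought by Pearson's r of log2 CPM among 14058 genes with a mean of at least 1 CPM. These r values describe 6 points that fall into the 2 lines, and the libraries share their line, their pair and their depth with every gene. In all, 250 genes had an r of at least 0.9 to KCNJ3. The 5 highest were H1FX, a linker histone gene (0.994), UNC119B, a lipid-binding trafficking factor of cilia (0.990), SLITRK3, a synaptic adhesion molecule (0.990), DSEL, an epimerase of dermatan sulfate (0.990), and NEXMIF, a gene of neurite extension (0.989). SLITRK3 was at 31.9, 38.7 and 44.9 CPM in pBabe-GNA13 and at 5.99, 8.95 and 6.79 CPM in pBabe-vector, a log2 fold change of 2.41. H1FX was at 209, 208 and 238 CPM in pBabe-GNA13 and at 141, 142 and 153 CPM in pBabe-vector, a log2 fold change of 0.59. Both had their highest library at replicate 3 of pBabe-GNA13, as KCNJ3 did. UNC119B lies on chromosome 12, where the median gene differed by 0.30 on the log2 scale, and relative to this median its log2 difference was 0.16 in place of 0.46. The gene that ran most nearly opposite to KCNJ3 was PRPF6, a splicing factor, with an r of -0.998.

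GNB2, GNB1 and GNG5 were the most abundant of these genes in both lines. Per kilobase of canonical transcript, the scale on which different genes can be compared, GNB2 was the highest subunit gene in pBabe-vector at 193 ± 5.11 CPM per kb, followed by GNB1 at 161 ± 9.38 CPM per kb (SD, n = 3 each). GNG5 stood at 144 ± 24.9 CPM per kb, within its spread of GNB1. GNG12 followed at 23.8 ± 1.19, GNB4 at 11.4 ± 3.14, GNG7 at 5.10 ± 1.69, GNG13 at 3.97 ± 0.958, GNG4 at 2.58 ± 0.364 and GNB5 at 2.34 ± 0.139 CPM per kb (SD, n = 3 each). The neighbours GNG7 and GNG13 did not differ beyond their spread, nor did GNG4 and GNB5. KCNJ3 was the lowest of these genes in pBabe-vector, at 0.11 ± 0.0194 CPM per kb. In pBabe-GNA13 it was at 1.16 ± 0.444 CPM per kb, within the spread of GNG4 at 1.48 ± 0.287 CPM per kb and next to GNB5 at 1.91 ± 0.344 CPM per kb (SD, n = 3 each). In replicate 3 of pBabe-GNA13, KCNJ3 (1.68 CPM per kb) lay above both GNG4 (1.42) and GNB5 (1.56). Counted per kilobase of merged exons in place of the canonical transcript, the order in pBabe-vector was the same, but GNG5 (23.1 CPM per kb) came next to GNG12 (22.2 CPM per kb).

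GNB1 and GNB2, the subunits that take part in most Gβγ dimers, were level between the lines. GNB1 (chr1:1785285-1892292, minus strand) was at 506, 525 and 499 CPM in pBabe-GNA13 and at 484, 542 and 501 CPM in pBabe-vector. Its log2 fold change was 0.00 (SE 0.10). GNB2 (chr7:100673567-100679174, plus strand) was at 321, 294 and 303 CPM in pBabe-GNA13 and at 313, 330 and 323 CPM in pBabe-vector. Its log2 fold change was -0.07 (SE 0.09, adjusted p = 0.944 by edgeR's quasi-likelihood test). The libraries of the lines overlapped for both genes, and neither was called with the pairs as a block. The coding sequences of GNB1 and GNB2 were identical at 79.7% of aligned bases, and no stretch shared by both ran longer than 44 bases.

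GNB4 and GNB5 were lower in pBabe-GNA13 within each pair of libraries. GNB4 (chr3:179396088-179451476, minus strand), a Gβ subunit close to GNB1, was at 75.8, 45.8 and 48.7 CPM in pBabe-GNA13 (std, replicates 2 and 3) and at 95.1, 59.9 and 61.6 CPM in pBabe-vector (replicates 1, 2 and 3). The std libraries were the highest of their line, and the lines overlapped. The log2 fold change of GNB4 was -0.35 (SE 0.25, adjusted p = 0.839 by edgeR) without the pairs and -0.35 (SE 0.05, adjusted p = 1.24e-05 by edgeR) with the pairs as a block. Within the pairs it was -0.33 (std), -0.39 (replicate 2) and -0.34 (replicate 3), so the value itself was the same and only its error shrank.

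GNB5 (chr15:52115100-52191392, minus strand) encodes the divergent Gβ subunit that binds RGS proteins in place of a Gγ. It was at 17.2, 20.1 and 14.0 CPM in pBabe-GNA13 and at 20.2, 22.4 and 20.2 CPM in pBabe-vector, and the highest pBabe-GNA13 library lay just under the lowest of pBabe-vector. The log2 fold change of GNB5 was -0.29 (SE 0.15, adjusted p = 0.714 by edgeR) and -0.30 (SE 0.08, adjusted p = 0.00984 by edgeR) with the block. The pairs gave -0.23 (std), -0.15 (replicate 2) and -0.53 (replicate 3), and without replicate 3 of both lines the blocked value was -0.18 (adjusted p = 0.281 by edgeR). GNB3, the remaining Gβ gene, stayed under a mean of 1 CPM, with 19 to 50 counts per library.

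The sequence before the start of GNB4 is shown beside that of KCNJ3, since both genes differed within each pair but in opposite directions. It covers chr3:179451477-179451720 (GRCh38.p14, minus strand), the first 244 bases of its 250-base window. Capitals mark GGAATG, the TEAD letters, at position -245 and GGGCGG read on the opposite strand at positions -156 and -55.
GNB4: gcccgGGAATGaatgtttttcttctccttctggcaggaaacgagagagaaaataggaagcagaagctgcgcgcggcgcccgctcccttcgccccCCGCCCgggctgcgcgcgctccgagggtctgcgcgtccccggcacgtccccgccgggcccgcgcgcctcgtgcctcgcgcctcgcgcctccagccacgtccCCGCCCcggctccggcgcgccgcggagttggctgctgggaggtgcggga

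The GNB4 window was richer in GC (73.6%) and in CpG (1.1 times the predicted count) than that of KCNJ3, and held no AGAACA. The TEAD letters occurred in 11.9% of all windows.

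Of the 12 Gγ genes 8 had a row and 5 reached a mean of 1 CPM. The last 30 bases of the coding sequence, stop codon included, are shown for the Gγ genes named below. They hold the box that receives the lipid anchor, and the genes differ in its last codon. The ends of the other Gγ genes, GNG2 among them, were not examined. Capitals mark the 4 codons of the box, read 5′ to 3′ from the Gencode 44 canonical transcripts.
GNG5: agaccccagaaagtcTGTTCCTTTTTGtag
GNG12: aaggataaaaaaactTGCATCATCTTAtag
GNG7: aaggacaagaaacctTGTATTATTTTAtaa
GNG4: gagaagaagttctttTGTACCATTCTCtaa
GNG13: gtggaaaagggcaaaTGCACCATCCTGtga
GNG10: cgggagcctagatccTGTGCTTTACTCtga
GNG11: aaagaaaaaggcagcTGTGTTATTTCAtaa
GNGT1: gagctcaaaggaggcTGTGTGATTTCAtaa

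The last residue of this box is known to decide whether a geranylgeranyl or a farnesyl group is attached. None of the 5 expressed genes ended its box in TCA, and GNG7 and GNG12 shared the last codon TTA. Among the genes shown, both whose box ended in TCA, GNG11 and GNGT1, were under the floor, with 0 to 2 counts per library, in either line. GNG2, a subunit widespread in brain, was also at or under the floor, with 0 to 3 counts per library. GNG10 has no row to describe. In Gencode 44 it lies at chr9:111661605-111670226 within a gene that reads through from DNAJC25, and whether its reads were dropped or assigned elsewhere was not tested.

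GNG5 and GNG12, the most abundant Gγ genes, did not differ between the lines beyond their spread. GNG5 (chr1:84498323-84506581, minus strand) was at 112, 103 and 142 CPM in pBabe-GNA13 and at 106, 103 and 139 CPM in pBabe-vector. Replicate 3 was the highest library of both lines, and the log2 fold change was 0.04 (SE 0.16, or 0.05 with the block). GNG12 (chr1:67701475-67833467, minus strand) was at 113, 114 and 98.5 CPM in pBabe-GNA13 and at 102, 110 and 101 CPM in pBabe-vector, a log2 fold change of 0.06 (SE 0.10). Replicate 3 of GNG12 was the lowest library of both lines. Both genes share possible reads with others: GNG5 has pseudogenes in the annotation, and an antisense RNA, GNG12-AS1 (chr1:67832293-68202987, plus strand), overlaps the start of GNG12, where reads cannot be separated unless the counting used the strand.

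GNG4, a Gγ subunit best known from neural tissue, had the largest difference between the lines among the subunit genes with a mean of at least 1 CPM. It lies at chr1:235547685-235650754 on the minus strand. It was at 6.02, 8.78 and 6.95 CPM in pBabe-GNA13 and at 11.4, 14.7 and 11.8 CPM in pBabe-vector. Every pBabe-GNA13 library lay below every pBabe-vector library (exact two-sided permutation p = 0.1, the smallest that 3 against 3 libraries can give). The log2 fold change of GNG4 was -0.80 (SE 0.19, unadjusted p = 0.00305, adjusted p = 0.277 by edgeR), and -0.81 (SE 0.10, adjusted p = 1.03e-06 by edgeR) with the block. The pairs gave -0.92 (std), -0.74 (replicate 2) and -0.76 (replicate 3). By edgeR, GNG4 was thus called lower with the pairs as a block and not without them.

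GNG13, a Gγ subunit of taste and retinal cells, was lower in the pBabe-GNA13 library of each pair but at few counts. It was at 1.93, 3.38 and 2.82 CPM in pBabe-GNA13 and at 3.46, 4.99 and 3.27 CPM in pBabe-vector, which overlap. Its log2 fold change was -0.53 (SE 0.27, adjusted p = 0.708 by edgeR), and -0.54 (SE 0.17, adjusted p = 0.0218 by edgeR) with the block. GNG7, a subunit known from striatum, ran with the pairs and not with the lines. It was at 21.1, 26.9 and 12.7 CPM in pBabe-GNA13 and at 19.7, 29.1 and 15.3 CPM in pBabe-vector, a log2 fold change of -0.08 (SE 0.32), with replicate 2 highest and replicate 3 lowest in both lines.

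Counted together, 0 of the 13 subunit genes with a row were called by edgeR without the block, where 0.139% of all 17297 genes were called, 0.116% higher and 0.0231% lower. Of these 13, GNG4 alone had an unadjusted p under 0.05, against 8.46% of all genes. DESeq2 called GNG4 and no other subunit, and limma-trend called none, where they called 271 and 5 of all genes. With the pairs as a block 4 of 13 (30.8%) were called, all lower (GNB4, GNB5, GNG4 and GNG13), where 19.7% of all genes were called, 9.32% higher and 10.4% lower. The median log2 fold change of the 9 subunit genes with a mean of at least 1 CPM was -0.08, against -0.01 over all genes at that level. Among these 9 genes, GNB5 and GNG4 did not overlap between the lines (14.7% of all genes at that level), and 5 differed in the same direction in all 3 pairs (53.1% of all such genes).

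**Figure D2:**
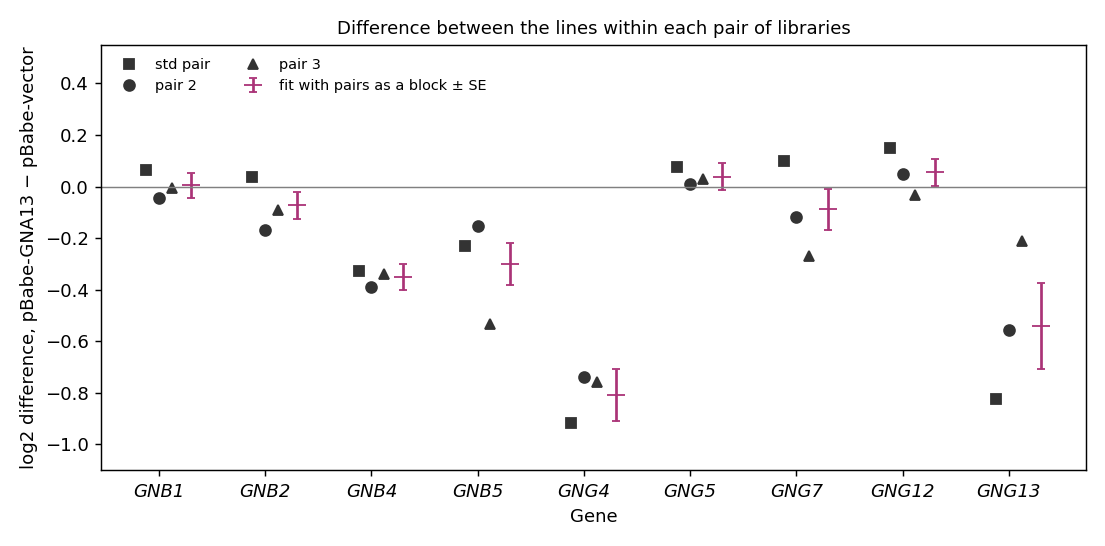
Difference in log2 CPM between pBabe-GNA13 and pBabe-vector within each of the 3 pairs of libraries, with the log2 fold change of the fit that takes the pairs as a block and its standard error. GNB4 lies between -0.39 and -0.33 and GNG4 between -0.92 and -0.74 in all pairs, while the pairs of GNB1, GNB2, GNG7 and GNG12 lie on both sides of 0.

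The genes that were called lower with the block are minor subunits, and the sums over the families hardly moved. Summed over the 5 Gβ genes, the level was 921, 885 and 866 CPM in pBabe-GNA13 and 913, 955 and 907 CPM in pBabe-vector, with means of 891 ± 27.8 and 925 ± 26.0 CPM (SD, n = 3 each). Summed over the 8 Gγ genes with a row, it was 255, 257 and 263 CPM in pBabe-GNA13 and 243, 262 and 270 CPM in pBabe-vector, with means of 258 ± 4.43 and 258 ± 13.8 CPM (SD, n = 3 each). Both sums overlapped between the lines.

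By share of the summed Gβ level per kilobase of canonical transcript, GNB2 held 51.6% ± 1.26 in pBabe-GNA13 and 52.5% ± 0.596 in pBabe-vector, and GNB1 held 45.2% ± 1.76 and 43.6% ± 1.13 (SD, n = 3 each). GNB4 held 2.51% ± 0.662 and 3.12% ± 0.938, and GNB5 held 0.536% ± 0.0966 and 0.635% ± 0.0182 (SD, n = 3 each). Among the Gγ genes GNG5 held 81.1% ± 4.18 in pBabe-GNA13 and 79.9% ± 4.11 in pBabe-vector, and GNG12 held 13.8% ± 2.56 and 13.4% ± 1.98 (SD, n = 3 each). The share of GNG4 was 0.827% ± 0.221 in pBabe-GNA13 and 1.46% ± 0.311 in pBabe-vector (SD, n = 3 each). These shares depend on the length given to each gene: with merged exons, GNG5 held 40.9% and GNG12 39.4% in pBabe-vector. GNG10 is missing from the sum, so the Gγ shares hold for the genes of the table only.

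**Figure D3:**
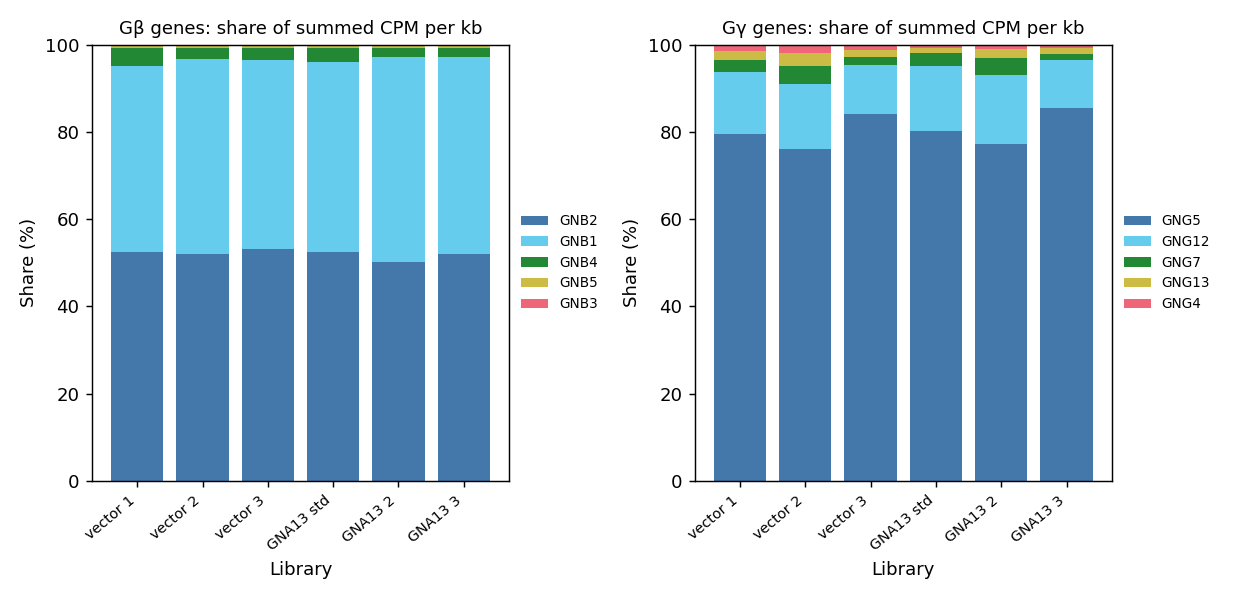
Share of each gene in the summed level of the Gβ genes (left) and of the Gγ genes (right) in each library, in percent of CPM per kilobase of canonical transcript. GNB2 and GNB1 make up nearly all of the Gβ level in all 6 libraries, and GNG5 holds between 76.0% and 85.6% of the Gγ level.

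Set against the Gα and Gβ genes, GNA13 went from a minor to a larger share between the lines. GNA13 made up 1.69% ± 0.148 of the summed Gα level per kilobase of canonical transcript in pBabe-vector and 19.4% ± 0.835 in pBabe-GNA13 (SD, n = 3 each). Its ratio to the summed Gβ level per kilobase was 0.0306 ± 0.00308 in pBabe-vector and 0.367 ± 0.0316 in pBabe-GNA13 (SD, n = 3 each). The ratio of all Gα to all Gβ per kilobase was 1.81 ± 0.0539 in pBabe-vector and 1.89 ± 0.107 in pBabe-GNA13, which overlap. These levels rest on the length given to GNAS, whose merged exons are far longer than its canonical transcript. They also rest on the length given to GNA13, which was its full canonical transcript of 6249 bases in both lines. The pBabe-GNA13 line carries a GNA13 cDNA in the vector, and the length of that insert is not given here. By either length, the GNA13 shares and the ratios are therefore not on a common scale between the lines. Per kilobase of merged exons, GNA13 made up 9.02% ± 0.788 of the Gα level in pBabe-vector and 55.8% ± 2.55 in pBabe-GNA13, and its ratio to the Gβ level was 0.0587 ± 0.00544 and 0.712 ± 0.0675 (SD, n = 3 each). On that scale the ratio of all Gα to all Gβ was 0.651 ± 0.0121 in pBabe-vector and 1.27 ± 0.0687 in pBabe-GNA13 (SD, n = 3 each), without overlap. Of the 13 Gα genes, 4 (30.8%) were called with the block, 2 higher and 2 lower, against 19.7% of all genes. These were GNA13, GNAI1, GNAS and GNAQ, and the related GNAI2 and GNAI3 were not called. The Gα gene GNAI1, whose product couples inhibitory receptors to KCNJ3, was at 15.8, 9.17 and 7.91 CPM in pBabe-GNA13 and at 42.1, 36.6 and 20.1 CPM in pBabe-vector, without overlap. Its log2 fold change was -1.58 (SE 0.34, adjusted p = 0.226 by edgeR), and it was called lower with the block (adjusted p = 1.54e-12 by edgeR). GNAS, the Gα of stimulatory receptors, was called lower with the block at a log2 fold change of -0.33, and the median of its chromosome, 20, was -0.21. For GNAQ, a Gα that activates phospholipase C, the log2 difference was 0.32 (adjusted p = 0.731 by edgeR). With the block it was called higher at 0.31 (adjusted p = 0.0198 by edgeR), where chromosome 9 showed 0.12 at its median. That call was lost in blocked fits by limma-trend and DESeq2 and without the std pair or pair 2.

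The other genes of the pathway were taken from lists of receptors, effectors, binding partners and maturation enzymes. Of 75 listed genes, KCNJ3 left out, 49 had a row and 38 reached a mean of 1 CPM. None was called by edgeR without the block, where 0.139% of all genes were called. An unadjusted p under 0.05 was found for 3 of the 49 (PLEKHG2, OPRK1 and RGS9BP), against 8.46% of all genes. DESeq2 called PLEKHG2 and OPRK1, and 271 of all 17297 genes. With the block 6 of 49 (12.2%) were called, against 19.7% of all genes, and 2 of these were higher (OPRK1 and CCT2) and 4 lower (PLEKHG2, TCP1, KCTD5 and KCTD17). The median log2 fold change of the 38 genes was -0.04.

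Of the 16 Gi-coupled receptors, the class that opens KCNJ3 through Gβγ, 8 had a row and 4 reached 1 CPM. In the blocked fit 1 of these 8 (12.5%) was called, against 19.7% of all genes. OPRK1, the kappa opioid receptor, was at 10.3, 10.1 and 21.7 CPM in pBabe-GNA13 and at 2.79, 3.87 and 6.70 CPM in pBabe-vector. All pBabe-GNA13 libraries of OPRK1 lay above those of pBabe-vector, and replicate 3 was the highest of both lines. The log2 fold change was 1.66 (SE 0.41, adjusted p = 0.299 by edgeR), and 1.65 (SE 0.11, adjusted p = 2.23e-11 by edgeR) with the block. GABBR1, a subunit of the GABA-B receptor, followed the pairs, at 9.90, 26.3 and 6.72 CPM in pBabe-GNA13 and 12.1, 22.1 and 6.01 CPM in pBabe-vector. ADRA2A, an alpha-2 adrenergic receptor, was at 9.48, 23.3 and 7.33 CPM in pBabe-GNA13 and at 7.20, 12.6 and 9.35 CPM in pBabe-vector, and it was called in neither fit.

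Of the 18 effectors of Gβγ, 13 had a row and 1 (7.69%) was called with the block, against 19.7% of all genes. PLEKHG2, an exchange factor that Gβγ activates, was at 16.9, 13.04 and 12.5 CPM in pBabe-GNA13 and at 24.1, 23.3 and 19.7 CPM in pBabe-vector, without overlap. Its log2 fold change was -0.66 (SE 0.16, adjusted p = 0.284 by edgeR), and -0.66 (SE 0.08, adjusted p = 1.02e-06 by edgeR) with the block. The most abundant effectors were level. ADRBK1, the older symbol of the kinase GRK2, which Gβγ brings to activated receptors, was at 252 ± 14.6 CPM in pBabe-GNA13 and 263 ± 15.6 CPM in pBabe-vector (SD, n = 3 each). PIK3CB, the catalytic p110β subunit of phosphoinositide 3-kinase, was at 95.1 ± 3.32 CPM in pBabe-GNA13 and 98.8 ± 3.72 CPM in pBabe-vector (SD, n = 3 each).

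The genes that make and regulate the dimer showed small differences. All 14 genes of folding and prenylation had a row, and 2 of them (14.3%) were called with the block, against 19.7% of all genes. CCT2 was called higher and TCP1 lower, both subunits of the chaperonin that folds Gβ. CCT2 was at 341 ± 56.6 CPM in pBabe-GNA13 and 294 ± 52.2 CPM in pBabe-vector (SD, n = 3 each), a blocked log2 fold change of 0.22 (SE 0.05). It lies on chromosome 12, and relative to the median of that chromosome its log2 difference was -0.08. TCP1 was at 555 ± 110 CPM in pBabe-GNA13 and 633 ± 90.3 CPM in pBabe-vector (SD, n = 3 each), a blocked log2 fold change of -0.20 (SE 0.05). CCT3 was at 606 ± 72.3 CPM in pBabe-GNA13 and 618 ± 63.1 CPM in pBabe-vector (SD, n = 3 each) and was not called.

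Of the 7 genes of KCTD proteins, adaptors that bring Gβγ to the CUL3 ubiquitin ligase or bind it at receptors, and CUL3 itself, 5 had a row. In the blocked fit 2 of these 5 (40%) were called, against 19.7% of all genes. KCTD5 was at 70.8, 65.2 and 69.3 CPM in pBabe-GNA13 and 75.1, 74.2 and 79.0 CPM in pBabe-vector, without overlap, and was called lower with the block at a log2 fold change of -0.15 (SE 0.05, adjusted p = 0.0369 by edgeR). KCTD17 was called lower with the block at -0.25 (SE 0.08, adjusted p = 0.038 by edgeR), and the median of its chromosome, 22, was -0.15. Both calls were lost when the blocked fit used limma-trend or DESeq2, or when pair 2 or pair 3 was left out. CUL3 was at 78.1 ± 7.99 CPM in pBabe-GNA13 and 73.6 ± 7.75 CPM in pBabe-vector (SD, n = 3 each). Of the 6 partners of GNB5, the RGS proteins of its class and their anchors, 5 had a row and none was called in either fit. Over all genes 0.139% were called without the block and 19.7% with it, so a count of 0 among 5 genes lies near the background. RGS9 was at 5.00 ± 1.21 CPM in pBabe-GNA13 and 4.86 ± 0.556 CPM in pBabe-vector (SD, n = 3 each), and RGS9BP, its membrane anchor, at 2.50 ± 0.163 and 3.35 ± 0.135 CPM without overlap (log2 fold change -0.42, SE 0.17, adjusted p = 0.549 by edgeR).

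**Figure D4:**
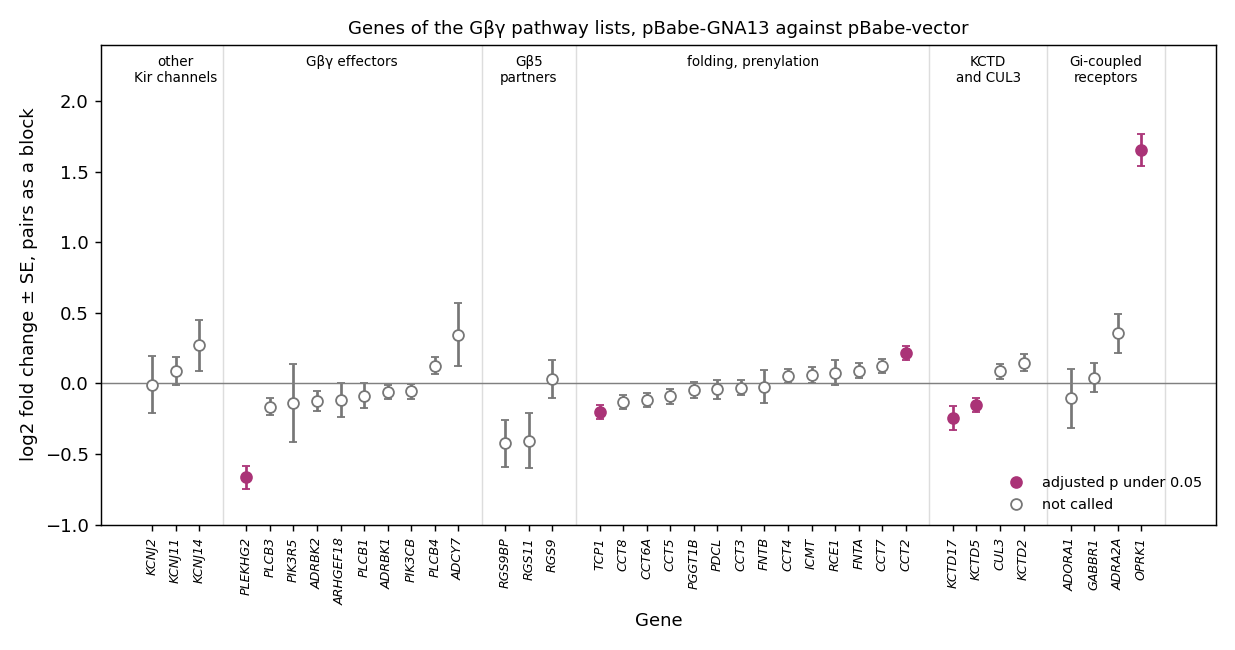
Log2 fold change with its standard error, from the fit that takes the pairs of libraries as a block, for the listed genes of the Gβγ pathway with a mean of at least 1 CPM, other than the subunits and KCNJ3. Filled points passed an adjusted p of 0.05, and OPRK1 at 1.65 and PLEKHG2 at -0.66 stand farthest from 0 among them.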

How the data were processed

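Per the labels, FastQC 0.11.7, STAR and featureCounts were used by the authors to check, align and count the reads. The version of STAR, the filter on genes and the use of strand are not given in the sources used here. The values the authors deposited are whole-number counts for 17297 gene symbols, and 0 columns were left out. The pBabe-GNA13 library tagged std is tied to its line only, since its heading repeats the number of replicate 2, and replicate 1 of pBabe-vector carries the same tag.

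Counts of all genes were fitted with edgeR 4.0.16 (R 4.3.3; TMM, abundance trend, quasi-likelihood test) with the line as the only term, and p was adjusted by Benjamini-Hochberg over all 17297 genes. A gene was called at an adjusted p under 0.05. Positive log2 fold changes mean a higher level in pBabe-GNA13. CPM values are TMM-normalized, log2 CPM used a prior count of 2, and errors of levels are SD over 3 libraries. The SE of a log2 fold change, in text and figures, was derived from the test. It is the absolute log2 fold change divided by the square root of the F statistic. The fit was tested on simulated data. The floor of 3 counts covers counting error only, because the reads carry no molecular identifiers.

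Libraries were paired by the number or tag of their heading. Deviations from the line means over 12778 genes correlated at 0.659 (std), 0.807 (replicate 2) and 0.888 (replicate 3) within pairs, and at -0.736 to 0.125 across pairs. The deviations of a line cancel out for each gene, so high values within pairs by themselves force lower values across pairs. Pairing was accepted on these correlations, and the fit with the pairs as a block is given where it changes a call. Alternatives were RLE size factors, filterByExpr, no abundance trend, the newer quasi-likelihood method, limma-trend (limma 3.58.1), DESeq2 1.42.0, the block, leaving out libraries or pairs, and values relative to the chromosome median. Fits that combine the block with another tool, and lengths of merged exons, were added once the data were known.

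Positions and lengths are from Gencode 44 (GRCh38) and promoters from RefSeq. Of the rows, 83.9% had a chromosome. All protein sequences were left out. KCNJ3 was left out of all counts of called pathway genes, although its list holds it, since it was chosen on this contrast. The members, lists and tests were chosen with earlier results of these data known. The genes named are the members, GNA13, the subunit and GIRK genes with a mean of at least 1 CPM, in each other list the called genes (at most 4) and the 2 most abundant, the 5 genes most like KCNJ3, and its neighbours. The Gα genes GNAI1, GNAS and GNAQ were named because they were called with the block. The genes at the floor, GNB3, PRPF6, GNAI2, GNAI3 and the markers were named besides these. Tables and figures were made with Python 3.11.15, pandas 2.3.3, SciPy 1.17.1 and matplotlib 3.10.9.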

Additional observations from a re-analysis of the deposited data

How the results depend on the processing

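Without the pairs, edgeR called 24 genes, 0 subunit genes and 0 pathway genes (KCNJ3 not counted), and RLE size factors, filterByExpr, no abundance trend and the newer quasi-likelihood method kept 0 for both lists. limma-trend called 5 genes in all and 0 in both lists. DESeq2 called 271 genes, 1 subunit gene and 2 pathway genes. With the replicate block the counts were 3407, 4 and 6. With the block and the newer quasi-likelihood method they were 3129, 4 and 5, with the block and limma-trend 433, 2 and 1, and with the block and DESeq2 2000, 2 and 4. GNB4 and GNG4 were called in each blocked fit, and GNB5 and GNG13 were lost with limma-trend and DESeq2. Of the pathway genes, OPRK1 was called in each blocked fit, PLEKHG2, CCT2 and TCP1 were lost with limma-trend (TCP1 also without pair 2), KCTD17 with limma-trend and DESeq2, and KCTD5 with these and the newer quasi-likelihood method. Leaving out 1 library gave 2 to 15 called genes and 0 in both lists. Leaving out 1 pair from the blocked fit gave 3266 (std), 2550 (pair 2) and 2250 (pair 3) called genes, 3 subunit genes each time, and 9, 3 and 5 pathway genes. GNB5 was lost without pair 3, and GNG13 without the std pair or pair 2.

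Log2 fold changes of some genes turned sign when 1 library was left out. GNB1 then ranged from -0.032 to 0.0505, GNG5 from -0.10 to 0.19, GNG7 from -0.34 to 0.21, KCNJ11 from -0.025 to 0.19, RGS9 from -0.081 to 0.23, CCT3 from -0.12 to 0.051, GABBR1 from -0.69 to 0.65 and ADRA2A from -0.21 to 0.76. With the block, GNB1 was at -0.022 and RGS9 at -0.0604 without the std pair, and CCT3 at 0.025 and GABBR1 at -0.098 without pair 2. Relative to the chromosome median, GNB1 was at -0.023 and CCT2 at -0.083. Of these genes, CCT2 was called with the block and none was called without it. The summed Gβ and Gγ levels kept their value within the spread under every alternative run. The cause of these shifts was not tested, and p-values with 3 cultures of 1 line each cannot speak for other lines.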
